A study of Homo sapiens with 16 samples.

Results

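The 8 genes that mark intestinal epithelium here, CDX1, CDX2, KLF5, EPCAM, CDH1, VIL1, LGR5 and ASCL2, were followed across 7 chromatin maps of DKO and HCT116 cells. Members were chosen by position: every region of the 7 deposited tables that overlapped 1 of these 8 hg19 loci, or the 10 kb on either side of it, was kept, which gave 576 of 1255311 regions. HCT116 is a human colorectal carcinoma line, and DKO is known as a line made from it by disrupting DNMT1 and DNMT3B, which encode DNA methyltransferases. Both lines were grown in McCoy's 5A medium with foetal bovine serum, and no other treatment is given. The series held 16 samples: 14 immunoprecipitated libraries, 1 per line for each of 7 targets, and 2 inputs that were not used here. Each comparison is thus of 1 DKO library with 1 HCT116 library.

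Antibodies were against CTCF, against RAD21 and SMC1 of the cohesin ring, and against acetylated lysine 27 of histone H3 (H3K27Ac). RNA polymerase II was mapped in its serine 5 form (Pol2Ser5), in its serine 2 form (Pol2Ser2) and as total protein (TotalRNAPol2). For TotalRNAPol2 the antibody label names Pol2Ser5 while the sample title names total polymerase, and the title was followed. As a check of the line labels, 46 regions of the 7 tables lay in a part of DNMT3B. Of these, 34 had 0 reads in the DKO libraries and 0 had 0 reads in the HCT116 libraries, where the largest held 431 reads. EPCAM and CDH1, the markers of epithelium among the members, each had an H3K27Ac region over the start that the authors called in both lines. A call in both lines does not mean an equal level. At CDH1 that region was more than 2-fold higher in HCT116, as given below.

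CDX1, CDX2 and KLF5 are transcription factors of the gut lining, and the CDX proteins direct intestinal fate. EPCAM and CDH1 (E-cadherin) are adhesion molecules of epithelial cells, and VIL1 (villin) bundles actin in the brush border. LGR5 is a receptor of R-spondins on crypt stem cells, and ASCL2 is a transcription factor of the same cells. H3K27Ac marks active promoters and enhancers, serine 5 phosphorylation marks polymerase near starts, and serine 2 phosphorylation marks elongating polymerase. CTCF binds DNA in a manner sensitive to methylation at some sites, and cohesin often accumulates where CTCF is bound.

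M, the deposited log2 ratio of DKO over HCT116 after the authors' scaling, is the measure used throughout. Whole reads per counting window (1 kb for CTCF, RAD21 and SMC1, 2 kb for the others) were recovered behind each M and are printed unscaled. Under that scaling M of 0 stood at a read ratio of DKO over HCT116 between 1.58 and 1.84 at the member regions for Pol2Ser5, and between 1.22 and 1.29 for SMC1. That ratio ran over 0.860 to 1.22 for CTCF, 0.943 to 1.54 for RAD21, 0.778 to 0.973 for H3K27Ac, 0.390 to 1.48 for Pol2Ser2 and 0.883 to 2.13 for TotalRNAPol2. A region with more reads in DKO can therefore have M below 0. Called regions had M of 1 or more (higher in DKO) or of -1 or less (higher in HCT116), which is a 2-fold difference. Each target had 1 library per line, hence no replicates and no test, and the brackets around M below are exact 95% intervals from the reads alone and cover counting error only. Regions called in both lines within 1 Mb of a member locus, the locus left out, had a median M between -0.44 and 0.46 over the 8 genes and 7 targets. The sign of M and the calls were also read under 4 other centrings: constant over all levels, recentred on all regions, and with the chromosome median or the median within 1 Mb removed.

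The polymerase targets were lower in DKO over most of the member regions, whereas CTCF was spread on both sides of 0. By gene, however, polymerase went both ways. The median M of TotalRNAPol2 was above 0 at CDX1 (1.63), CDX2 (1.05), VIL1 (0.40) and ASCL2 (1.60). It was below 0 at KLF5 (-0.64), EPCAM (-0.34), CDH1 (-1.04) and LGR5 (-0.79). Inside the CDX2 locus the TotalRNAPol2 median was 0.02 over 2 regions (M -0.52 and 0.56), so the CDX2 value rested on the flanks. At VIL1 the TotalRNAPol2 median turned to -0.19 under constant centring. For Pol2Ser2 the median M was above 0 only at CDX1, CDX2 and VIL1, and for Pol2Ser5 only at CDX1 and ASCL2. For Pol2Ser5, 30 of 87 regions (34.5%) were called higher in HCT116, against 21% of all regions of its table, and 5 regions (5.75%) were called higher in DKO, against 14.9%. For Pol2Ser2, 37 of 114 regions (32.5%) were called higher in HCT116, against 10.9% of all regions, and 7 (6.14%) higher in DKO, against 18.6%. For TotalRNAPol2, 21 of 88 regions (23.9%) were called higher in HCT116, against 10.2%, and 11 (12.5%) higher in DKO, against 20.7%. The median M of the member regions was -0.69 for Pol2Ser5, where all regions of the table had -0.00. For Pol2Ser2 it was -0.63, with 0.17 over all regions, and for TotalRNAPol2 it was -0.51, with 0.27 over all regions.

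The excess of polymerase calls higher in HCT116 rested on CDH1 for Pol2Ser5 and TotalRNAPol2. Without the CDH1 locus 7 of 59 Pol2Ser5 regions (11.9%) and 4 of 57 TotalRNAPol2 regions (7.02%) were called higher in HCT116, both below the shares over all regions. For Pol2Ser2 the share without CDH1 was 11 of 71 regions (15.5%), still above 10.9%.

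H3K27Ac leaned the same way by a smaller amount. Of its 104 member regions, 16 (15.4%) were called higher in HCT116, against 10.4% of all regions, and 1 (0.962%) higher in DKO, against 11%. The median M was -0.18, with -0.05 over all regions.

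For CTCF, 9 of 51 regions (17.6%) were called higher in DKO, against 20.1% of all regions, and 5 (9.80%) higher in HCT116, against 6.33%. Those shares lie near the background of the table. RAD21 had 7 of 75 regions (9.33%) called higher in DKO, against 13.7%, and 12 (16.0%) higher in HCT116, against 8.7%. SMC1 had 2 of 57 regions (3.51%) called higher in DKO, against 9.36%, and 5 (8.77%) higher in HCT116, against 4.67%. The cohesin excess in HCT116 also rested on CDH1. Without that locus 4 of 51 RAD21 regions (7.84%) and 1 of 39 SMC1 regions (2.56%) were called higher in HCT116. Both shares lie below those over all regions. The median M was 0.09 for CTCF, with 0.26 over all regions, and recentring turned its sign. It was -0.10 for RAD21, with 0.14 over all regions, a sign that turned under constant centring and without the CDH1 locus, and -0.23 for SMC1, with 0.16 over all regions.

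A single gene supplied most of the regions called higher in HCT116. Over the 7 tables together, 42 member regions were called higher in DKO and 126 in HCT116, and 86 of the 126 belonged to CDH1. Neighbouring regions can share a counting window, and with 1 region kept per window the counts were 28 in DKO and 81 in HCT116. Without the CDH1 locus, 41 of 397 regions (10.3%) were called higher in DKO, against 15.6% over all regions of the 7 tables. The 40 called higher in HCT116 (10.1%) lie at the background of 10.2%. The regions called higher in DKO lay mostly at CDX1 (13), CDX2 (10) and ASCL2 (9), with 5 at EPCAM, 4 at KLF5, 1 at CDH1 and none at VIL1 or LGR5.

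**Figure D1:**
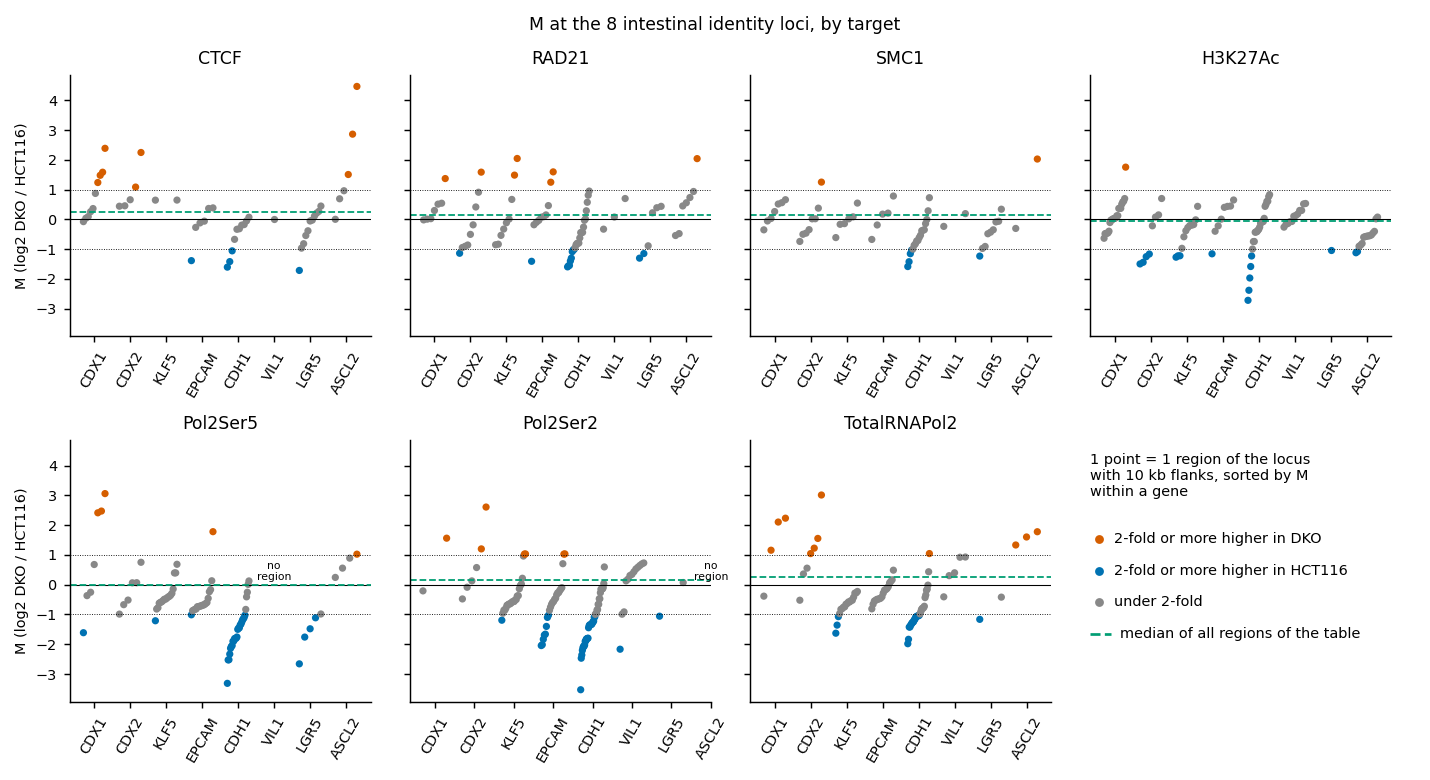
M (log2 of DKO over HCT116, vertical axis) of every member region, 1 panel per target and 1 column per gene, sorted within a gene. Orange points have M of 1 or more, blue points M of -1 or less, and the dashed green line is the median of all regions of the table. The 86 blue CDH1 points outnumber those of every other gene, and the highest point is the CTCF region of ASCL2 at 4.47.

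Positions are in hg19, as in the tables. No annotation of that build was used, so distances are from the border of the locus on the side of the gene's start, called the start edge.

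CDX1, on chromosome 5 between PDGFRB and SLC6A7 in RefSeq gene order, was higher in DKO at its start edge for CTCF, H3K27Ac and all polymerase targets. The authors had called the start-edge region of each of these targets in DKO only, so each was listed through the line where it was higher. Pol2Ser5 at chr5:149545804-149547007 had 91 reads in DKO against 9 in HCT116 (M 2.48, 1.62 to 3.79). The next Pol2Ser5 region, chr5:149547129-149547366, had 81 reads in DKO against 5 in HCT116 (M 3.06, 2.03 to 4.97), an 8.35-fold scaled difference. Total and serine 2 phosphorylated polymerase pointed the same way. TotalRNAPol2 had 106 reads in DKO against 22 in HCT116 at chr5:149545813-149546532 (M 2.11, 1.48 to 2.89), and 111 in DKO against 21 in HCT116 at chr5:149546763-149547335 (M 2.24, 1.61 to 3.04). Pol2Ser2 was thinly covered, with 21 reads in DKO against 13 in HCT116 at chr5:149546800-149546992 (M 1.56, 0.54 to 2.72).

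The acetylation mark was also higher in DKO there. H3K27Ac at chr5:149545811-149546523 had 133 reads in DKO against 46 in HCT116 (M 1.76, 1.28 to 2.29), a 3.38-fold scaled difference. It was the only 1 of the 104 H3K27Ac member regions called higher in DKO. The other 22 H3K27Ac regions of CDX1 stayed under 2-fold, and the lowest had M of -0.63.

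CTCF at chr5:149545822-149546557, the same stretch, had 77 reads in DKO against 12 in HCT116 (M 2.39, 1.60 to 3.50). Cohesin differed less near the start edge: the nearest RAD21 region had 45 reads in DKO against 22 in HCT116 (M 0.54), and the nearest SMC1 region had 33 in DKO against 26 in HCT116 (M 0.03, a sign that turned when M was recentred on all regions). The site with the most CTCF and cohesin reads, just before the start, was near equal in both lines for these 3 targets. There CTCF at chr5:149539152-149544135 had 728 reads in DKO against 824 in HCT116 (M 0.04), RAD21 had 439 in DKO against 452 in HCT116 (M -0.02), and SMC1 had 341 in DKO against 338 in HCT116 (M -0.35). The sign of that CTCF value turned under 3 of the 4 other centrings. At 1 place within the same stretch polymerase was called higher in DKO. Pol2Ser5 at chr5:149542906-149543569 had 60 reads in DKO against 6 in HCT116 (M 2.42, 1.41 to 4.12). TotalRNAPol2 at chr5:149542992-149543504 had 73 in DKO against 30 in HCT116 (M 1.16, a call that held under 2 of the 4 other centrings). Elsewhere in the stretch polymerase stayed under 2-fold, with M of 0.68, -0.37 and -0.25 for Pol2Ser5 and -0.38 for TotalRNAPol2.

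CDX2, on chromosome 13 between PDX1 and URAD and read from the minus strand, had less H3K27Ac in DKO at its start edge, and regions of other targets higher in DKO in both flanks. The RefSeq promoter of CDX2 (250 bases before the start, GRCh38.p14, minus strand, chr13:27969316-27969565) is shown because H3K27Ac over the start edge differed between the lines, with CG pairs, the sites of DNA methylation, in capitals.
CDX2: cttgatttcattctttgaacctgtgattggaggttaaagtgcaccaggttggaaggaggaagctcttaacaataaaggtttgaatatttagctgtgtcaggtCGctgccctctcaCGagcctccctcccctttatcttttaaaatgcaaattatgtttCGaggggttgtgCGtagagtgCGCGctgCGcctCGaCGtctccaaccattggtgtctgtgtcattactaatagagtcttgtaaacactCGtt
It held 10 CG, and the median over the 35116 promoters of the RefSeq table was 11. These coordinates belong to GRCh38.p14 and were not placed on hg19.

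H3K27Ac over the CDX2 start edge, chr13:28540162-28543972, had 360 reads in DKO against 852 in HCT116 (M -1.16, -1.35 to -0.99), a 2.24-fold scaled difference in favour of HCT116. RAD21 there had 103 reads in DKO against 174 in HCT116 (M -0.94), and SMC1 had 65 in DKO against 87 in HCT116 (M -0.74). CTCF at chr13:28541835-28543521 did not follow, with 247 reads in DKO against 188 in HCT116 (M 0.44). Polymerase differed by less than 2-fold and in both directions: Pol2Ser5 had 381 reads in DKO against 302 in HCT116 (M -0.52), and TotalRNAPol2 had 326 in DKO against 249 in HCT116 (M -0.52). A second TotalRNAPol2 region beside it had 137 reads in DKO against 69 in HCT116 (M 0.56), and Pol2Ser2 had 24 in DKO against 35 in HCT116 (M 0.13, a sign that turned under 2 of the 4 other centrings).

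Before the start edge 3 further H3K27Ac regions were called higher in HCT116. They had 64 reads in DKO against 179 in HCT116 (M -1.25), 32 in DKO against 107 in HCT116 (M -1.44), and 27 in DKO against 95 in HCT116 (M -1.50, -2.21 to -0.90). With the start region, that made 4 of the 8 H3K27Ac regions of CDX2, against 10.4% of all regions of that table.

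About 8 kb before the CDX2 start edge, 5 of the 7 targets were called higher in DKO within 1 short stretch. The authors had called each of these 5 regions in DKO only. They were thus listed through the line where they were higher, and the count is not independent of that. CTCF at chr13:28551376-28552617 had 114 reads in DKO against 21 in HCT116 (M 2.25, 1.62 to 3.05). TotalRNAPol2 at chr13:28551970-28552622 had 81 reads in DKO against 10 in HCT116 (M 3.01, 2.18 to 4.25), an 8.08-fold scaled difference. Cohesin went with them. RAD21 had 65 reads in DKO against 15 in HCT116 (M 1.59, 0.83 to 2.58), SMC1 had 88 in DKO against 29 in HCT116 (M 1.25, 0.67 to 1.95), and Pol2Ser2 had 23 in DKO against 7 in HCT116 (M 2.61, 1.47 to 4.21). Pol2Ser5 there had 55 reads in DKO against 19 in HCT116, which stayed under 2-fold (M 0.75). H3K27Ac was near equal at the same place, with 63 reads in DKO against 68 in HCT116 (M 0.15) and, in the region beside it, 62 in DKO against 86 in HCT116 (M -0.21).

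The flank behind CDX2 held the other 5 of its 10 regions called higher in DKO. At chr13:28533914-28535551 CTCF had 379 reads in DKO against 188 in HCT116 (M 1.09, 0.84 to 1.35). TotalRNAPol2 overlapped it with 97 reads in DKO against 29 in HCT116 (M 1.56, 0.98 to 2.24) and with 98 in DKO against 40 in HCT116 (M 1.05). Both the CTCF call and the second of these held under 2 of the 4 other centrings. Farther on, TotalRNAPol2 at chr13:28527606-28529011 had 225 reads in DKO against 66 in HCT116 (M 1.23, 0.84 to 1.66), and Pol2Ser2 had 24 in DKO against 18 in HCT116 (M 1.20, 0.28 to 2.19).

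**Figure D2:**
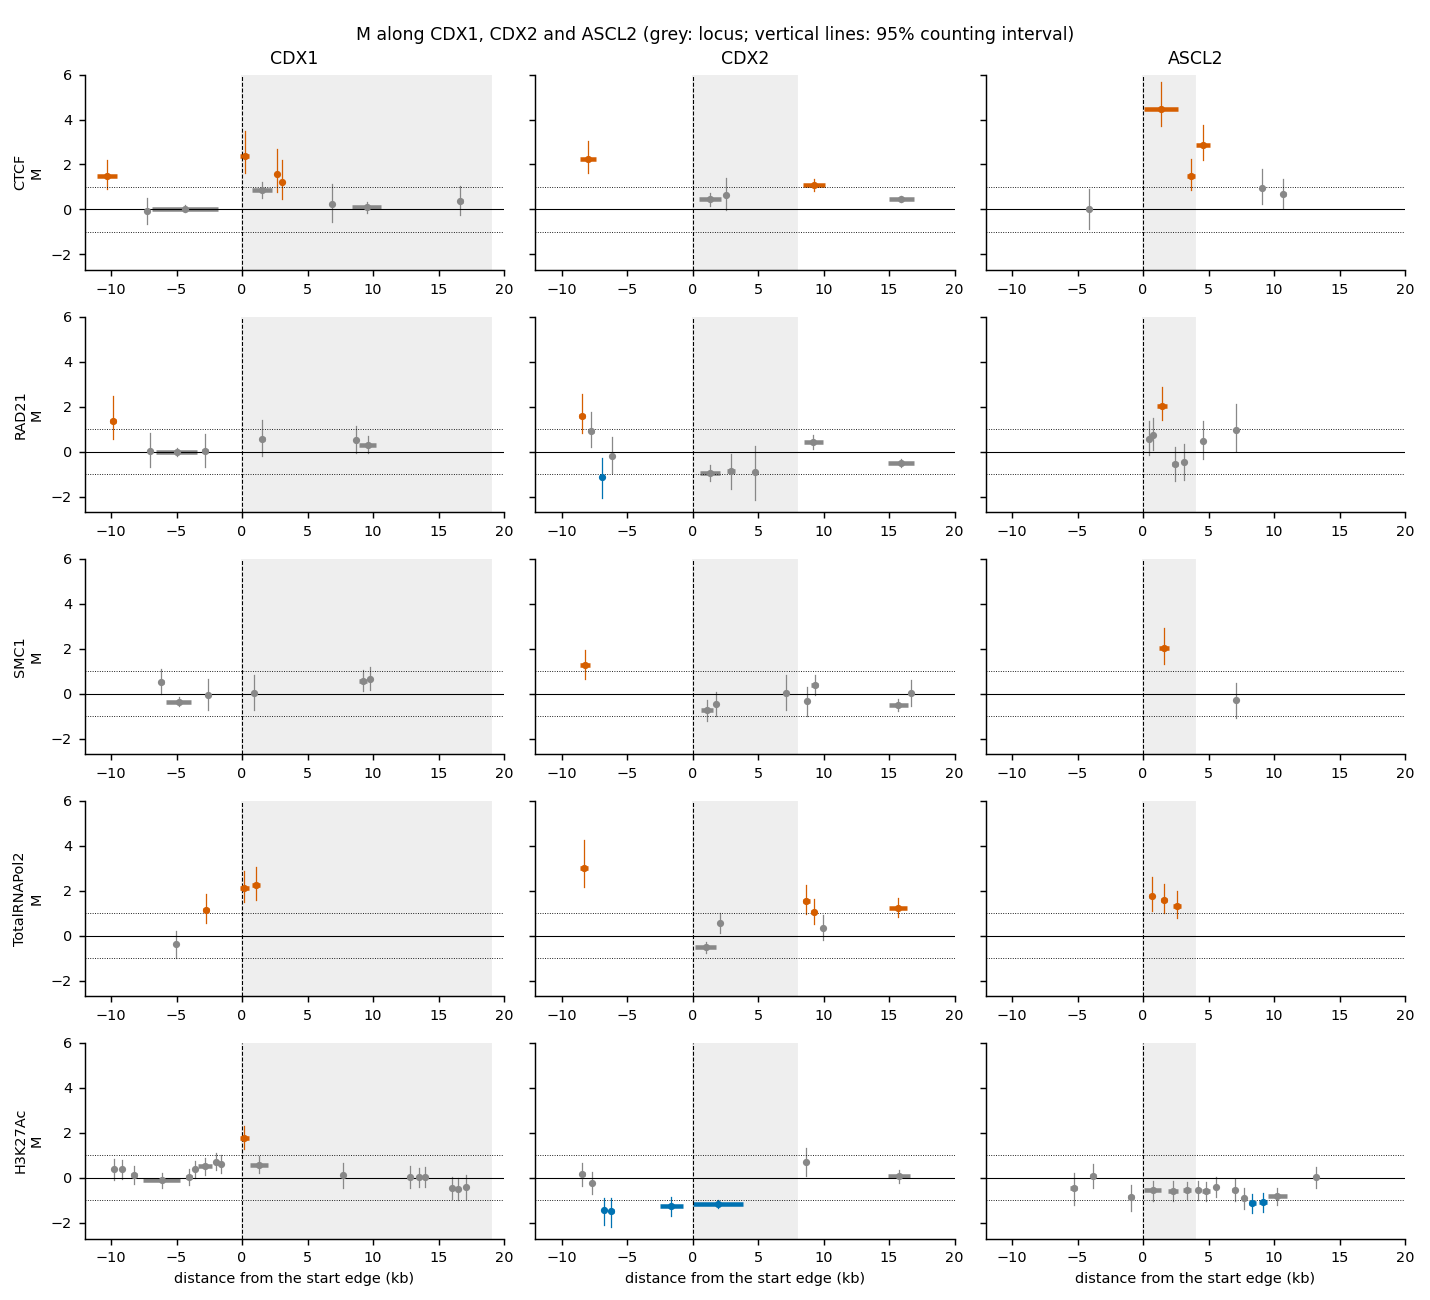
M along CDX1, CDX2 and ASCL2 (columns) for 5 targets (rows) against distance in kb from the start edge along the gene, with 95% counting intervals as vertical lines and region lengths as horizontal bars. Orange regions are 2-fold or more higher in DKO and blue ones 2-fold or more higher in HCT116. CTCF and TotalRNAPol2 stand high at the start edge of CDX1 and ASCL2 and in both flanks of CDX2, while H3K27Ac is past 2-fold higher only at the start edge of CDX1.

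KLF5, also on chromosome 13, between PIBF1 and KLF12, differed by under 2-fold at its main site for every target but Pol2Ser2. Along the rest of the gene polymerase was mostly lower in DKO. RefSeq gives KLF5 a pair of starts that lie 4.03 kb apart, and both promoters (250 bases before each start, GRCh38.p14, plus strand) are shown because the regions with the highest level of every target but Pol2Ser2 lay 2.78 to 7.28 kb into the locus and not at its start edge. CG pairs are in capitals, the first promoter being chr13:73054726-73054975 and the second chr13:73058755-73059004.
KLF5 first start: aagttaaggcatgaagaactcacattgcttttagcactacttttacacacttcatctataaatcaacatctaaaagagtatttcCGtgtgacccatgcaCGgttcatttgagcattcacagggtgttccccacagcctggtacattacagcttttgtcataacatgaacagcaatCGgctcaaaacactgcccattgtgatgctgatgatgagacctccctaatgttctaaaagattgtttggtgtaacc
KLF5 second start: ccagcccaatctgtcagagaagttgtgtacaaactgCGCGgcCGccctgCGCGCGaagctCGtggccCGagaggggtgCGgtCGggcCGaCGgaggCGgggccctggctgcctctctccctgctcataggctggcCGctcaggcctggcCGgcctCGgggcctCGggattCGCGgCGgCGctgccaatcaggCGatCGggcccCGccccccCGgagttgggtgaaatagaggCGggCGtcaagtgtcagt
The first held 3 CG and the second 27, on either side of the RefSeq median of 11.

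H3K27Ac at chr13:73631780-73635418 had 689 reads in DKO against 533 in HCT116 (M 0.44, 0.27 to 0.61). At the start edge of KLF5 the same mark had 48 reads in DKO against 59 in HCT116 (M -0.01, a sign that turned under 3 of the 4 other centrings). CTCF at chr13:73633091-73634186 had 185 reads in DKO against 118 in HCT116 (M 0.65, 0.31 to 1.00). Acetylation and CTCF thus stood above 0 at the main site. RAD21 had 179 reads in DKO against 240 in HCT116 (M -0.53), SMC1 had 133 in DKO against 116 in HCT116 (M -0.14), and Pol2Ser5 at chr13:73632438-73634837 had 685 in DKO against 509 in HCT116 (M -0.45). TotalRNAPol2 there had 574 reads in DKO against 315 in HCT116 (M -0.23, but 0.27 under constant centring), whereas Pol2Ser2 at chr13:73632898-73633563 had 40 in DKO against 29 in HCT116 (M 1.03, 0.32 to 1.79, a call that held under 2 of the 4 other centrings).

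Along KLF5 all 18 TotalRNAPol2 regions had M below 0, with a median of -0.64, and 3 were called higher in HCT116. The share over all regions of that table was 10.2%. The 24 Pol2Ser2 regions had a median M of -0.56, and 19 of them lay below 0. Behind the gene, H3K27Ac at chr13:73654634-73656406 had 53 reads in DKO against 152 in HCT116 (M -1.27, -1.77 to -0.83), and the region after it had 46 in DKO against 129 in HCT116 (M -1.22). Going the other way, RAD21 at chr13:73651821-73652148, at the end of the locus, had 42 reads in DKO against 6 in HCT116 (M 2.05, 1.00 to 3.76), and no CTCF region overlapped it.

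The promoter letters of CDX2 and KLF5 were searched on both strands for 5 motifs, and both genes were the ones of the 8 that matched an entry of the RefSeq promoter table. A short core of the CTCF motif (AGGNGGC, held by 31.5% of all RefSeq promoters), an E-box (CAGGTG, 17.5%) and a CDX-type motif (TTTATG, 9.64%) were in none of the 3 promoters. A TCF-type motif (CTTTGA, 11.2%) was in that of CDX2, and a TATA-type motif (TATAAA, 10.7%) in that of the first KLF5 start, far from the start itself. Read from the other strand the TATA-type motif is TTTATA, which shares its first 5 letters with the CDX-type motif. A match is a run of letters in this window and not a measured site.

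EPCAM, on chromosome 2, differed by under 2-fold at its start edge for acetylation and polymerase and had less Pol2Ser2 along the gene in DKO. H3K27Ac at chr2:47595438-47598404 had 737 reads in DKO against 998 in HCT116 (M -0.40, -0.54 to -0.26). Pol2Ser5 at chr2:47595529-47597458 had 669 reads in DKO against 550 in HCT116 (M -0.60). For TotalRNAPol2 at chr2:47595979-47597818 the reads were 573 in DKO against 285 in HCT116 (M -0.06, a sign that turned under 3 of the 4 other centrings). RAD21 was the target called at this edge: chr2:47595802-47597702 had 95 reads in DKO against 224 in HCT116 (M -1.41, -1.78 to -1.06). SMC1, the other cohesin subunit, had 81 reads in DKO against 103 in HCT116 (M -0.67), and CTCF had 183 in DKO against 143 in HCT116 (M 0.37).

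Inside the EPCAM locus all 16 Pol2Ser2 regions had M below 0, with a median of -0.80, and 7 were called higher in HCT116. The share over all regions of that table was 10.9%. The authors had called 10 of the 16 in HCT116 only, 3 in DKO only and 3 in both lines. Reads in these 16 regions ran from 7 to 42 with a median of 16 in DKO, and from 32 to 83 with a median of 57 in HCT116, so the ranges overlapped between 32 and 42 reads. The start region had 42 reads in DKO against 79 in HCT116 (M -0.56). The lowest, chr2:47605572-47605786, had 7 reads in DKO against 57 in HCT116 (M -2.04, -3.59 to -1.08). TotalRNAPol2 in the same locus had 9 of 12 regions below 0 (median M -0.43), and none was called.

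**Figure D3:**
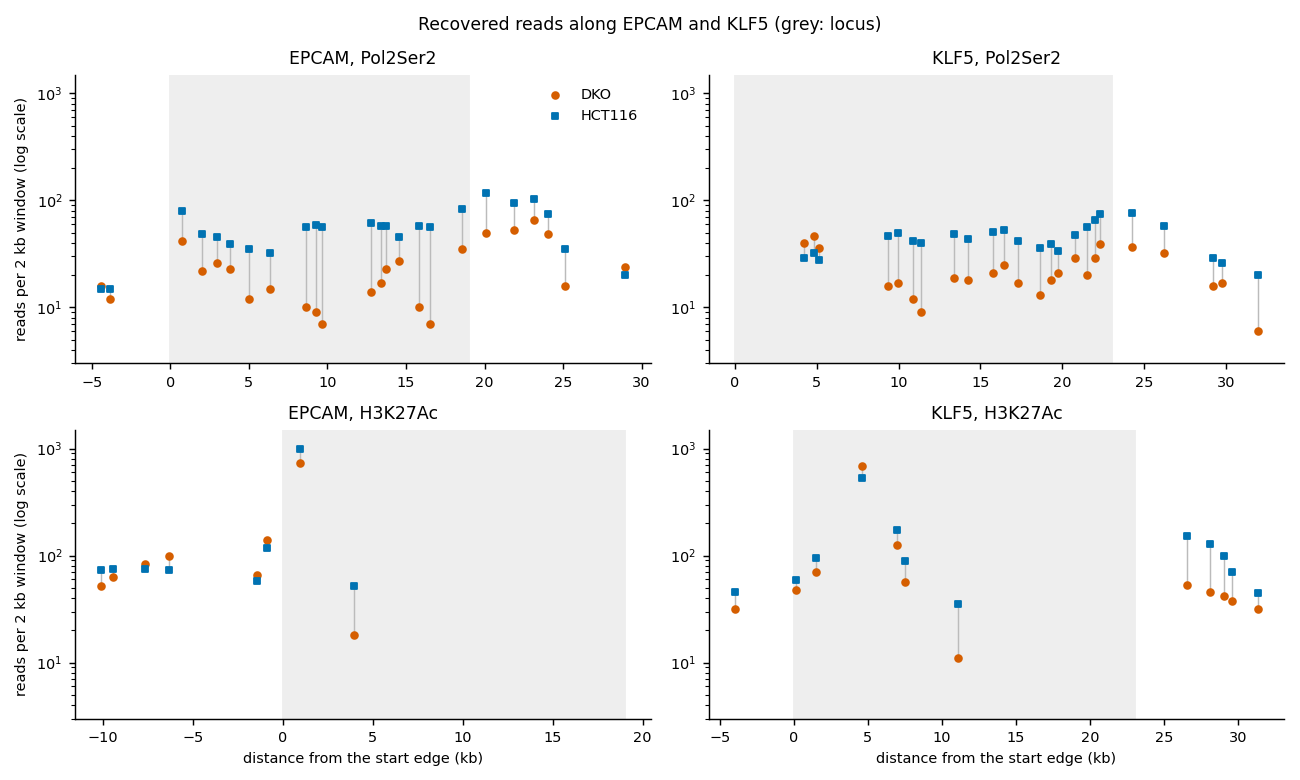
Recovered reads per 2 kb window (log scale) of Pol2Ser2 (upper row) and H3K27Ac (lower row) along EPCAM (left) and KLF5 (right), DKO as orange circles and HCT116 as blue squares, against distance in kb from the start edge. Pol2Ser2 reads of DKO lie under those of HCT116 along both gene bodies except near the main site of KLF5. The H3K27Ac regions with the most reads differ by under 2-fold (737 in DKO against 998 in HCT116 at EPCAM, 689 in DKO against 533 in HCT116 at KLF5). Reads are unscaled.

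CDH1, on chromosome 16 between CDH3 and TANGO6, was lower in DKO for acetylation over its first 8.97 kb and for polymerase along most of the gene. H3K27Ac over the start edge, chr16:68770036-68773324, had 152 reads in DKO against 652 in HCT116 (M -1.97, -2.24 to -1.72), a 3.91-fold scaled difference. The next large region, chr16:68774235-68778767, had 57 reads in DKO against 433 in HCT116 (M -2.72, -3.16 to -2.34), 6.58-fold in favour of HCT116. These 2 regions and 3 smaller ones within 8.97 kb of the start edge were the H3K27Ac regions of CDH1 called higher in HCT116. Farther in, some regions of the mark were higher in DKO. Between 21.3 and 26.8 kb from the start edge 5 regions had M from 0.44 to 0.83, the highest at chr16:68796571-68796792 with 129 reads in DKO against 84 in HCT116 (M 0.83, 0.43 to 1.25).

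Polymerase was lower in DKO at the start edge and beyond it. Pol2Ser5 at chr16:68770751-68772396 had 331 reads in DKO against 468 in HCT116 (M -1.36, -1.56 to -1.15), and TotalRNAPol2 there had 268 in DKO against 303 in HCT116 (M -1.08, and -0.77 under constant centring). Inside the CDH1 locus 22 of 24 Pol2Ser5 regions, 22 of 36 Pol2Ser2 regions and 15 of 22 TotalRNAPol2 regions were called higher in HCT116. The shares over all regions of the tables were 21%, 10.9% and 10.2%. Of the 24, 36 and 22 locus regions, the authors had called 21, 31 and 21 in HCT116 only. Most were thus listed through the line where they were higher, and the counts are not independent of that. The medians of M inside the locus were -1.78 for Pol2Ser5, -1.30 for Pol2Ser2 and -1.08 for TotalRNAPol2. No region of these 3 targets inside the locus was called higher in DKO.

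Pol2Ser2, the elongating form, was nearly equal at the start edge of CDH1, with 34 reads in DKO against 57 in HCT116 (M -0.27). It was lowest in DKO at chr16:68780812-68781259, about 10 kb in, where 1 DKO read stood against 51 in HCT116 (M -3.53, -9.83 to -1.96). Just past the end of the locus, chr16:68870812-68871903 had 14 reads in DKO against 116 in HCT116 (M -2.47, -3.47 to -1.75), and chr16:68869504-68870653, which crosses that end, had 20 in DKO against 120 in HCT116 (M -2.12). TotalRNAPol2 reached its lowest value inside the locus, at chr16:68862342-68862625, with 25 reads in DKO against 94 in HCT116 (M -1.98, -2.72 to -1.37).

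In the flank past the locus 4 of 7 Pol2Ser2 regions were still called higher in HCT116 (median M -1.08), against 10.9% of all regions of that table. Farther into that flank 1 site was near equal in both lines. At chr16:68876825-68878840, toward TANGO6, H3K27Ac had 388 reads in DKO against 438 in HCT116 (M -0.07). Pol2Ser5 there had 298 reads in DKO against 199 in HCT116 (M -0.25), and TotalRNAPol2 had 326 in DKO against 224 in HCT116 (M -0.34).

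Cohesin was also lower in DKO at the start edge of CDH1, and CTCF there was near equal. RAD21 over the start edge had 142 reads in DKO against 265 in HCT116 (M -1.02, -1.33 to -0.73), and 8 of its 24 regions were called higher in HCT116. SMC1 had 75 reads in DKO against 99 in HCT116 at the start edge (M -0.72), with 4 of 18 regions called higher in HCT116. Over all regions of the tables the shares were 8.7% for RAD21 and 4.67% for SMC1. The authors had called 16 of the 24 RAD21 regions and 11 of the 18 SMC1 regions in HCT116 only, so these counts are not independent of that listing. CTCF at the start edge had 178 reads in DKO against 206 in HCT116 (M -0.17), and its lowest region, chr16:68783380-68783853, had 33 in DKO against 94 in HCT116 (M -1.60, -2.25 to -1.04).

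**Figure D4:**
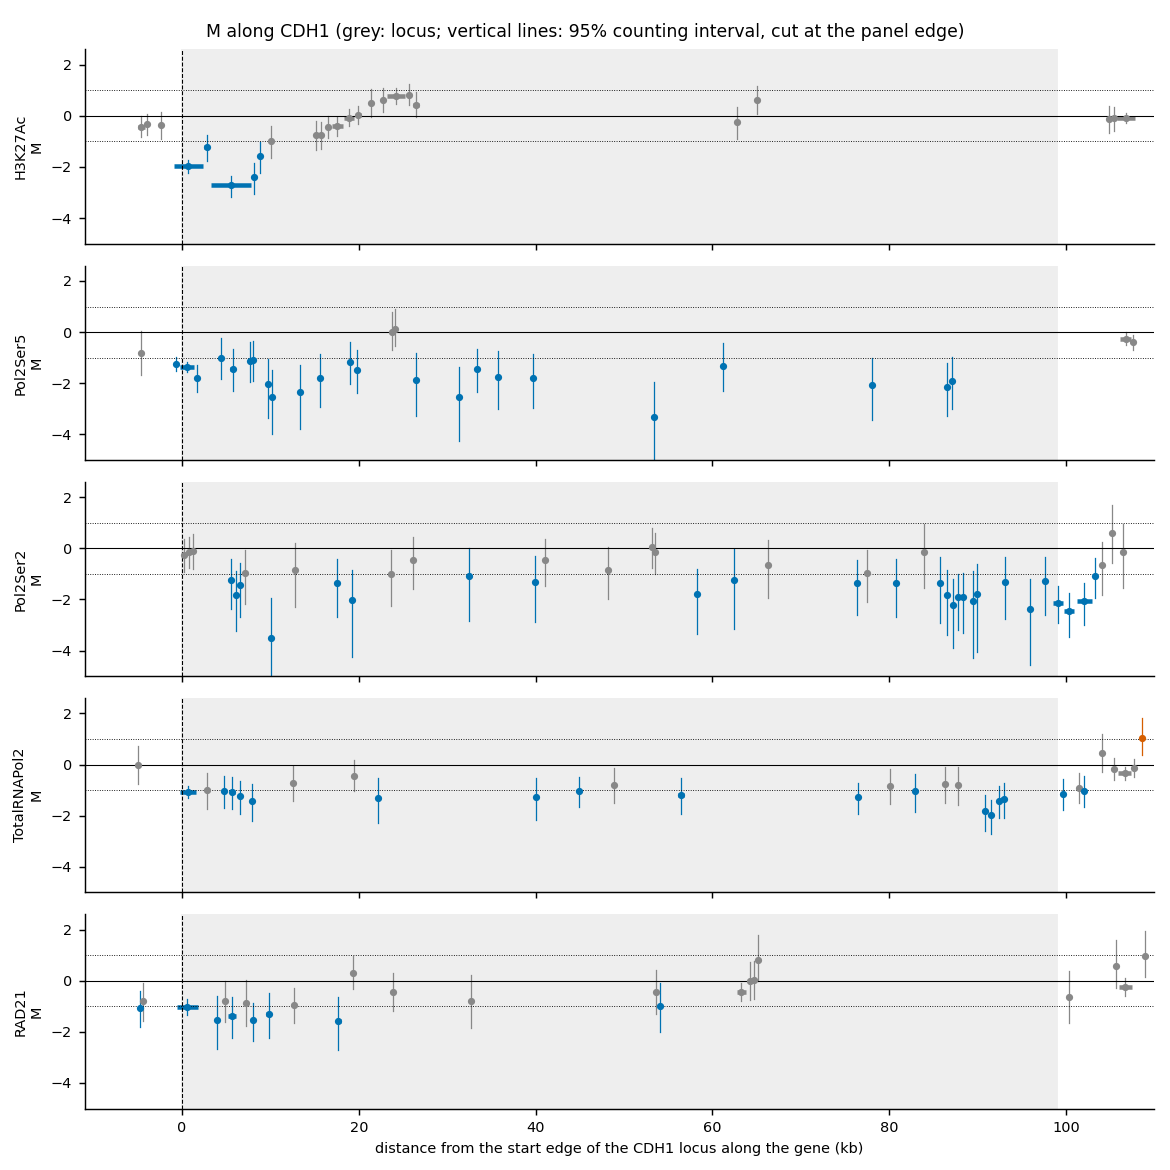
M along CDH1 for H3K27Ac, Pol2Ser5, Pol2Ser2, TotalRNAPol2 and RAD21 (rows) against distance in kb from the start edge, with 95% counting intervals as vertical lines, cut at the panel edge, and the locus in grey. Blue regions are 2-fold or more higher in HCT116. H3K27Ac is past 2-fold low over the first 8.97 kb only, whereas 22 of 24 Pol2Ser5 regions in the locus are past 2-fold, the last of them 87.2 kb from the start edge. The authors called 21 of these 24 Pol2Ser5 regions in HCT116 only.

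VIL1, on chromosome 2 between CTDSP1 and USP37, had no region called inside its locus. Its 12 H3K27Ac regions had M between -0.26 and 0.54. The locus held 10 Pol2Ser2 regions with M between 0.13 and 0.73 (median 0.48) and 4 TotalRNAPol2 regions with M between 0.31 and 0.93 (median 0.66, but 0.07 under constant centring). Reads of Pol2Ser2 in the locus ran from 24 to 45 in DKO and from 29 to 49 in HCT116, so the ranges overlapped. No Pol2Ser5 region fell in the window of VIL1, and no CTCF region inside its locus. The single called region, Pol2Ser2 at chr2:219275464-219275664 in the flank before the gene, had 3 reads in DKO against 37 in HCT116 (M -2.17, -4.88 to -0.88). A Pol2Ser2 region with more reads, chr2:219268956-219273487, reached into that flank and stood just under 2-fold. It had 327 reads in DKO against 440 in HCT116 (M -0.99, and -1.16 recentred on all regions).

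LGR5, on chromosome 12 between TSPAN8 and ZFC3H1, had weak signal in both lines and no region called higher in DKO. It held 1 H3K27Ac region, chr12:71863166-71863758, 30.2 kb into the locus, with 29 reads in DKO against 74 in HCT116 (M -1.03, -1.73 to -0.42). Other targets were also lower in DKO at that place. TotalRNAPol2 had 28 reads in DKO against 62 in HCT116 (M -1.16), Pol2Ser5 had 29 in DKO against 38 in HCT116 (M -1.11), RAD21 had 20 in DKO against 36 in HCT116 (M -1.30) and SMC1 had 19 in DKO against 31 in HCT116 (M -0.97). Near the start edge of LGR5 the difference was under 2-fold for CTCF, with 58 reads in DKO against 49 in HCT116 (M 0.11), and for RAD21, with 65 in DKO against 99 in HCT116 (M -0.89). The nearest Pol2Ser5 region, chr12:71836058-71836237, had M -2.66. All 4 Pol2Ser5 regions of the locus were called higher in HCT116 (median M -1.62), against 21% of all regions. Their reads were few (3 to 29 in DKO, 13 to 38 in HCT116), and the authors had called 3 of them in HCT116 only. The CTCF region with the most reads, chr12:71944903-71945942, had 106 reads in DKO against 153 in HCT116 (M -0.54).

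ASCL2, on chromosome 11 between TH and C11orf21, carried the largest difference of all 576 regions. CTCF at chr11:2290365-2292932, which covers most of the locus, had 265 reads in DKO against 10 in HCT116 (M 4.47, 3.70 to 5.68), a 22.1-fold scaled difference. The authors called this region in DKO only. CTCF was also called higher in DKO at chr11:2287894-2288950, with 143 reads in DKO against 17 in HCT116 (M 2.87, 2.21 to 3.76), and at chr11:2289067-2289675, with 81 in DKO against 25 in HCT116 (M 1.51). The median of CTCF regions called in both lines within 1 Mb of ASCL2 was 0.46, and with it removed the largest M was 4.00.

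Cohesin and total polymerase were higher in DKO at the same place. RAD21 at chr11:2291189-2291939 had 107 reads in DKO against 19 in HCT116 (M 2.04, 1.39 to 2.89), and SMC1 at chr11:2291021-2291758 had 90 in DKO against 17 in HCT116 (M 2.03, 1.34 to 2.94). Of the 5 RAD21 regions in the locus, only that 1 was called, and 2 had M below 0 (-0.54 and -0.48). The other SMC1 region of the window had M -0.30. TotalRNAPol2 had 3 regions in the locus, each called higher in DKO: 76 reads in DKO against 21 in HCT116 (M 1.78), 101 in DKO against 29 in HCT116 (M 1.60), and 100 in DKO against 34 in HCT116 (M 1.34). Under constant centring 2 of these 3 calls held, and the authors had called all 3 regions in DKO only. Pol2Ser5 was less clear, with its highest region at 81 reads in DKO against 23 in HCT116 (M 1.03, 0.39 to 1.81), a call that held under only 1 of the 4 other centrings. No Pol2Ser2 region fell in the window.

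Acetylation at ASCL2 went the other way. H3K27Ac over the start edge, chr11:2291616-2292942, had 65 reads in DKO against 114 in HCT116 (M -0.56, -1.04 to -0.12), and 13 of the 15 H3K27Ac regions lay below 0. Those called higher in HCT116 had 62 reads in DKO against 159 in HCT116 (chr11:2284407-2284914, M -1.12) and 72 in DKO against 178 in HCT116 (M -1.08). In the DKO library ASCL2 thus had more CTCF and total polymerase and less of the mark, with more cohesin at 1 called region of each subunit.

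**Figure D5:**
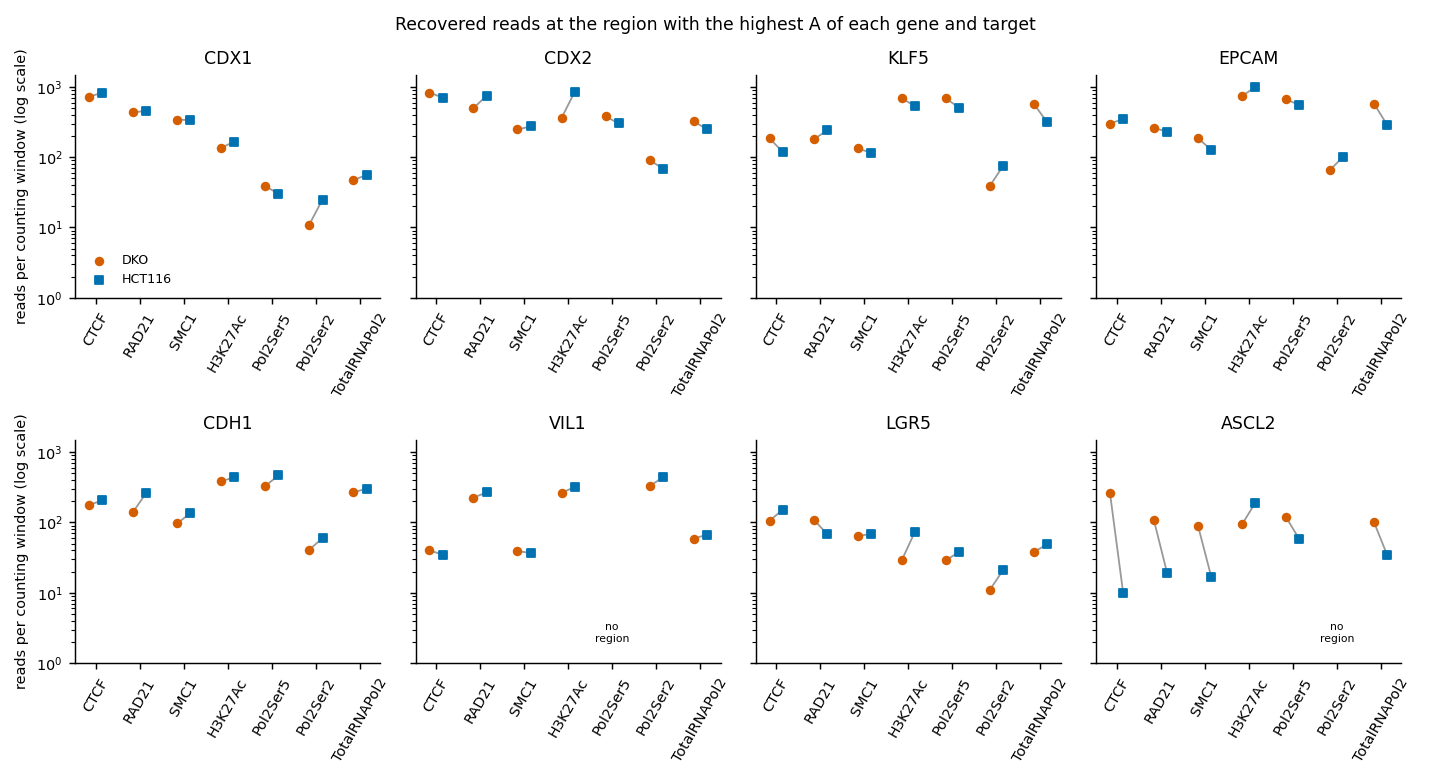
Recovered reads per counting window (log scale) at the region with the highest mean level of each gene and target, DKO as orange circles left of HCT116 as blue squares, joined by a line. The DKO point lies far above the HCT116 point for CTCF (265 against 10), RAD21 and SMC1 of ASCL2, and far below it for H3K27Ac of CDX2 (360 against 852). The region shown can lie in a flank, as for H3K27Ac and Pol2Ser2 of VIL1. For H3K27Ac of CDH1 it is the site toward TANGO6 (388 in DKO against 438 in HCT116). The lower H3K27Ac at the CDH1 start edge is thus not shown. Reads are unscaled, so a pair at equal height need not have M of 0.

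The CTCF regions that were higher in DKO were set beside the other targets by overlap of at least 1 bp. Of the 9 called higher in DKO, 5 overlapped a RAD21 region, 3 an SMC1 region, 7 an H3K27Ac region and 4 a TotalRNAPol2 region. Of the 5 called higher in HCT116, 4 overlapped RAD21, 4 SMC1, 2 H3K27Ac and 3 TotalRNAPol2. Of all 51 CTCF member regions, 32 overlapped RAD21, 24 SMC1, 28 H3K27Ac and 22 TotalRNAPol2. The site before CDX2 and the ASCL2 locus had CTCF and both cohesin subunits called higher in DKO together, and the start edge of CDX1 had CTCF without them.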

How the data were processed

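The 14 immunoprecipitated libraries were grouped by line and target from their titles. Reads were aligned with BWA to hg19, and MACS2 is named for every target but TotalRNAPol2, per the submitters' processing notes, with versions not given in the sources used here. The tables, 7 in number and deposited by the authors, list regions called per line, with a read density signal per line that the authors normalized, M and A on a log2 scale and a p-value, per the file headers. The deposited p-value served only in 1 alternative filter.

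The line in A that the authors removed from the log2 ratio was fitted in each table, and whole reads were recovered from M and A: 100% of values were whole within 0.05, and 1 had been added to each count. The slope in A was 0.33 for Pol2Ser2, 0.32 for TotalRNAPol2 and between -0.13 and 0.06 for the others, so in these 2 tables the scaling changes with level. Median reads per region over the 7 tables were 24 to 78 in DKO and 23 to 94 in HCT116, which limits the precision of single regions. Levels were compared only within a table. Exact Clopper-Pearson intervals at 95% (SciPy 1.17.1) cover counting error only, and there was 1 library per line and target, so no test was made. The recovery was tested on simulated data.

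For each gene and target the text could name the region at or nearest the start edge, the largest and smallest M among regions with at least 20 reads in one of the lines, and, added after the values were seen, the region with the highest A; other regions were also chosen after their values were seen. The 8 genes, lists and alternatives were chosen with earlier results of these data known. The lists of other intestinal genes and of cell type markers were not analysed here, since no annotation of hg19 was used. RefSeq promoters (GRCh38.p14) were matched by symbol for 2 of the 8 genes. The neighbouring genes of EPCAM are not reported here.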

Additional observations from a re-analysis of the deposited data

How the results depend on the processing

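No paired analysis was possible because each line has 1 library per target and no replicate numbers. No setting turned a called difference of a named region. The median M over the 8 loci kept its sign under every alternative with these exceptions: for CTCF (0.09) it was -0.17 when recentred on all regions, for RAD21 (-0.10) it was 0.026 under constant centring and 0.072 without the CDH1 locus, for SMC1 (-0.23) it was 0.022 with 50 kb on each side, and for TotalRNAPol2 (-0.51) it was 1.23 among regions with a deposited p under 1e-05. That filter, which keeps few regions, also gave 1.48 for CTCF, -0.94 for RAD21, -0.66 for SMC1, -1.27 for H3K27Ac, -0.93 for Pol2Ser5 and -2.10 for Pol2Ser2. Pol2Ser5 (-0.69) was -0.50 over regions called in both lines and -0.42 with medians within 1 Mb removed. Pol2Ser2 (-0.63) was -0.37 with 50 kb on each side, -0.87 under constant centring, -0.47 with medians within 1 Mb removed and, in an alternative added after seeing the data, -0.38 without the CDH1 locus. TotalRNAPol2 was -0.35 with 50 kb on each side, -0.85 under constant centring and -0.77 recentred. The 42 regions higher in DKO were 21 with no flank, 124 with 50 kb on each side, 2 over regions called in both lines, 18 with a deposited p under 1e-05, 79 at a 1.5-fold threshold and 14 at 4-fold. The 126 higher in HCT116 were 15 over regions called in both lines, 23 with a deposited p under 1e-05, 81 with 1 region per counting window, 220 at 1.5-fold, 21 at 4-fold and 40 without the CDH1 locus. Of the calls past 2-fold, 25.0% were higher in DKO, against 39.6% with 50 kb on each side, 11.8% over regions called in both lines, 43.9% with the p filter and 50.6% without CDH1. The causes were not tested. Of 138 values of named regions, constant centring moved 6 beyond their counting interval, recentring 4, medians within 1 Mb 3 and chromosome medians 0. Few reads limit single regions: M of the CDH1 Pol2Ser2 region with 1 read in DKO and 51 in HCT116 has an interval from -9.83 to -1.96.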
